A study of Mus musculus with 6 samples.

Results

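Hormone receptor positive luminal genes are the genes by which the hormone-sensing cells of the mammary epithelium are known. The 9 genes Esr1, Pgr, Prlr, Foxa1, Areg, Greb1, Cited1, Tbx3 and Tnfsf11 were taken by symbol from the deposited count tables, which hold 51826 gene symbols, and all 9 were found. RNA-seq had been run on total RNA of sorted cells labelled as mammary basal cells, from pubertal mice of strain C57B6/N and genotype SMAcreERT2/N1ICD. In these mice a tamoxifen-inducible Cre recombinase is driven by a smooth muscle actin (SMA) promoter, and N1ICD names the part of the Notch1 receptor that enters the nucleus once signalling is switched on. Tamoxifen was given once on postnatal day 21 and cells were taken 72 hours later, on day 24. Each of 3 pools of 2 to 3 mice was sorted into a fraction with GFP (GFPpos) and another without it (GFPneg), which gave 6 libraries. Mice of both fractions carried the same alleles and received the same tamoxifen, so GFPneg is no untreated or allele-free control, and the labels do not state what GFP marks. The title gives the question as the switch of cell fate after Notch activation. The smooth muscle actin promoter is also known to be active in vascular smooth muscle.

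In the mammary epithelium, estrogen and progesterone act on the luminal cells that hold their receptors. Those cells pass the signal to neighbours without receptors through secreted factors: amphiregulin (Areg) is known as the estrogen-induced ligand that drives duct growth in puberty, and RANKL (Tnfsf11) as the progesterone-induced ligand that acts later. Esr1 encodes estrogen receptor alpha, Pgr the progesterone receptor and Prlr the prolactin receptor. Foxa1 is the factor that opens chromatin for the estrogen receptor, Cited1 a coactivator of it, Tbx3 a transcription factor needed for mammary development, and Greb1 a gene induced by estrogen.

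Of the 9 members, 8 had a promoter entry in RefSeq (build GRCm38.p6), with 14 transcription starts between them, and the 250 bases before each start were searched on both strands. The full estrogen response element GGTCANNNTGACC was in 0 of the 14 windows, against 0.0639% of 32851 windows of all genes. Its core GGTCA was in 5 of 14 windows (Greb1, Foxa1 and Cited1), against 35.2% of all windows. The core TGGGAA of RBPJ, the DNA-binding partner of the Notch intracellular domain, was in 2 of 14 windows (Areg and Prlr), against 21.6% of all. The STAT5 motif TTCNNNGAA, of the factor that acts behind the prolactin receptor, was in 2 of 14 (Esr1 and Prlr), against 7.02% of all, and the FOXA motif TGTTTAC was in 2 of 14 (Foxa1 and Prlr), against 3.17% of all. The core GGTCA also forms each end of the full element. The matches before the start of Areg and before the first starts of Prlr and Greb1 are shown because these letters are the cores known to be bound by RBPJ and the estrogen receptor. Capitals mark the match in either orientation, and each sequence runs 5′ to 3′ on the strand of its gene. The windows lie at chr5:91139404-91139469 (+, Areg), chr15:10177164-10177229 (+, Prlr) and chr12:16800940-16801004 (-, Greb1). A match is a run of letters and does not show binding.
Areg: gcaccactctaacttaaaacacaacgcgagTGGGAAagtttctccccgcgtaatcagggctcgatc
Prlr: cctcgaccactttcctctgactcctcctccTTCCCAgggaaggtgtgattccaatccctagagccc
Greb1: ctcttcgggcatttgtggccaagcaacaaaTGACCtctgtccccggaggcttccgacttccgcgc

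Levels are given as CPM, counts per 1000000 of the library size after TMM scaling. GFPneg replicate 1 stood apart, with 611465 gene counts against 9912610 to 16043492 in the other libraries, and 69.2% of its counts in 5 abundant noncoding features against 22.7% to 34.7%. A single count there equalled 3.28 CPM, against 0.0513 to 0.0911 CPM elsewhere. Of the 9 members only Tbx3 had counts in that library (16), and the other 8 were at 0. By counting error alone, 0 counts allow up to 3 counts, or 9.84 CPM. Among all tested genes with a mean of 10 to 20 CPM in the other 5 libraries, however, 56.8% (1349 of 2373) were also at 0 there, as were the 3 members in that range (Esr1, Pgr and Prlr). Of genes at 5 to 10 CPM, 71.8% were at 0, and of genes at 1 to 5 CPM, 82.4%. A 0 in GFPneg replicate 1 was thus common at the members' levels, and no fold is given for that pair except for Tbx3. The fitted value of each member tested is also given without that library.

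**Figure D1:**
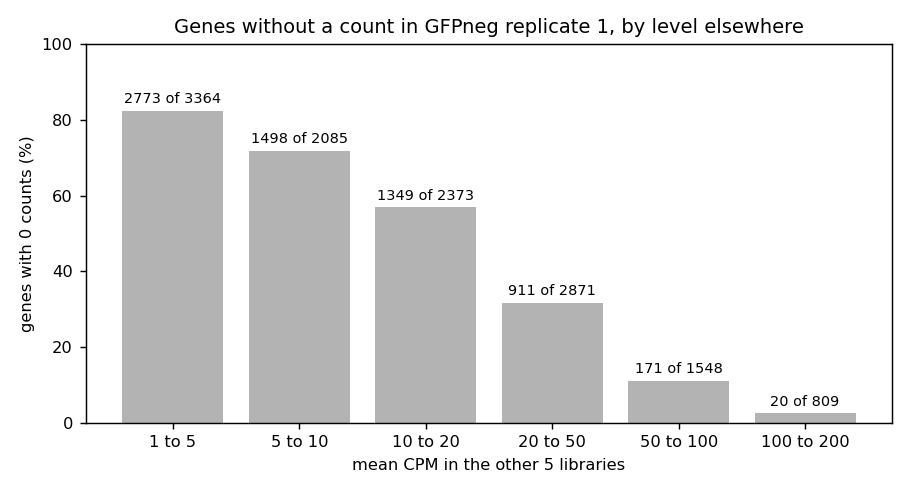
Bars give the percentage of tested genes with 0 counts in GFPneg replicate 1 (vertical axis) by their mean CPM in the other 5 libraries (horizontal axis), with the number of genes over each bar. The share at 0 falls from 82.4% at 1 to 5 CPM to 2.47% at 100 to 200 CPM, the range of Tbx3.

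No member passed the threshold between GFPpos and GFPneg cells in edgeR's quasi-likelihood test. Of the 9, 7 passed the low count filter (Cited1 and Tnfsf11 did not), and 0 were called higher and 0 lower at a Benjamini-Hochberg adjusted p below 0.05. Over all 13873 tested genes 0.0577% were called higher and 0.00721% lower. Without adjustment, 0 of the 7 had a p below 0.05, against 2.38% of all genes higher and 2.88% lower. With the replicate number as a block, which compares the fractions within a pool, 0 of 7 were again called, against 0.31% of all genes higher and 0.13% lower. Their SEs, from 0.47 for Tbx3 to 1.60 for Areg and Greb1 on the log2 scale, leave room for differences of several fold in most of them. The median log2 fold change of the 7 was 0.57, against 0.15 over all tested genes, with 5 positive and 2 negative values. Without GFPneg replicate 1, 8 members were tested and 0 were called, against 0.412% of all genes higher and 0.19% lower, and their median was 0.11 (0.04 over all genes). In the fit of replicates 2 and 3 alone with the block, 0 of 8 were called, against 2.52% higher and 1.41% lower. In bulk RNA, fewer cells of a type and less RNA per cell cannot be told apart.

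**Figure D2:**
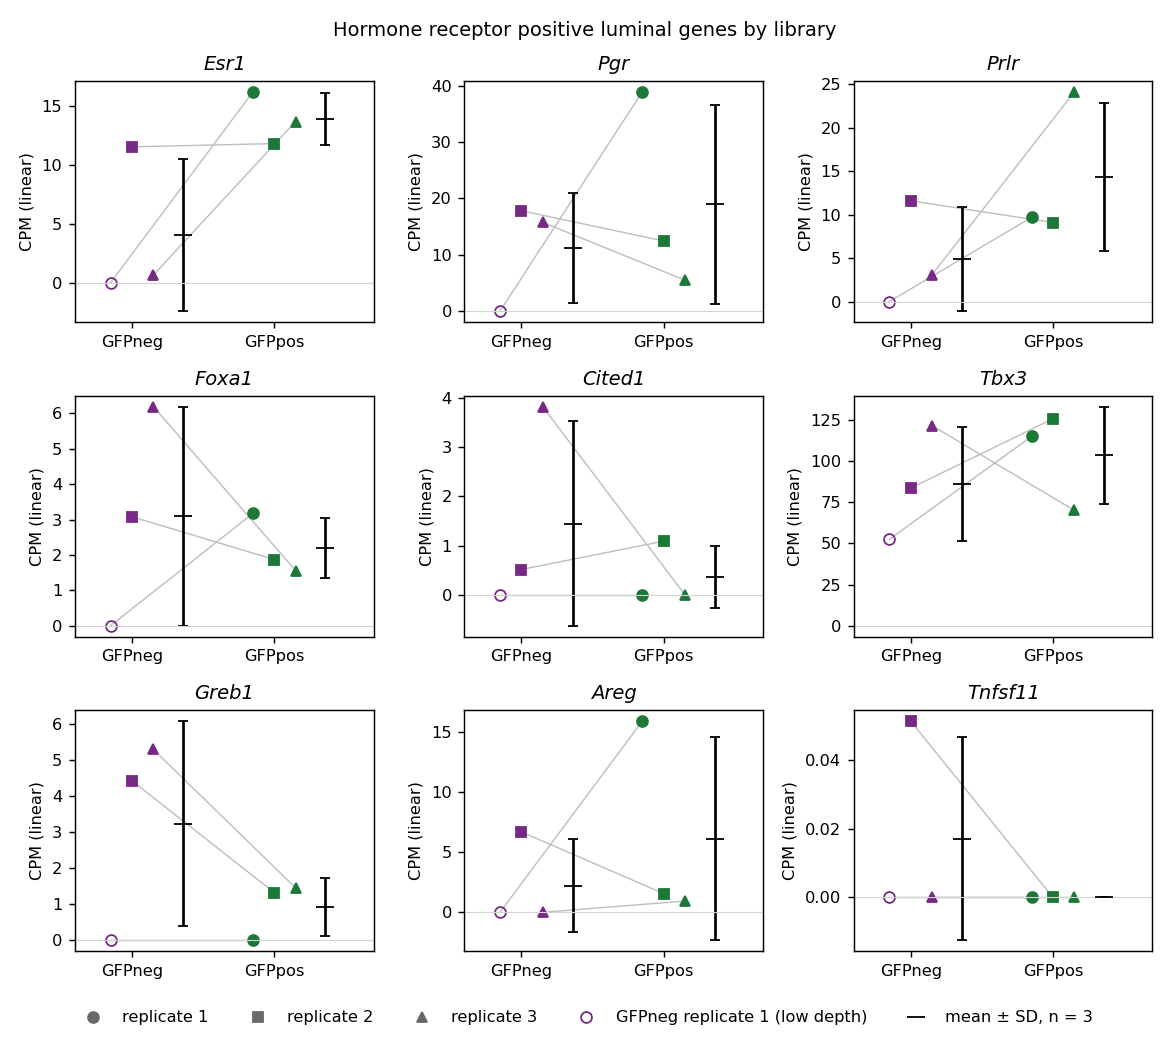
Each panel gives the CPM of a member (linear axis) in the 3 GFPneg and 3 GFPpos libraries, with marker shapes for the replicate number, grey lines joining the fractions of a pool, an open circle for the shallow GFPneg replicate 1, and black bars for mean ± SD (n = 3). Of the 9 panels, the groups are separate only for Esr1, where GFPneg replicate 2 (11.5 CPM) lies just under GFPpos replicate 2 (11.8 CPM).

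Among the receptors, Esr1 (chromosome 10, 4611593 to 5005614, mm10) stood at 16.2, 11.8 and 13.7 CPM in GFPpos replicates 1, 2 and 3, from 179, 152 and 264 counts. In GFPneg replicates 1, 2 and 3 it stood at 0, 11.5 and 0.638 CPM, from 0, 225 and 7 counts. The 3 GFPpos libraries lay close together, and the GFPneg libraries spread from none to nearly the GFPpos level. Esr1 was the only member whose groups did not overlap with all 6 libraries, an order that 9.53% of all tested genes showed in this direction and 3.63% in the other. Without GFPneg replicate 1 the Esr1 groups were again separate, as were those of 11.8% of genes with GFPpos higher. The gap was set by the replicate 2 pair, whose ratio of 1.02 had a 95% interval of 0.828 to 1.26 (exact, counting error only). In the replicate 3 pair the GFPpos to GFPneg ratio was 21.5 (10.3 to 54.0). Over all libraries its log2 fold change was 1.48 (SE 1.09, adjusted p = 1.0 in edgeR's quasi-likelihood test), 2.75 with the replicate block (SE 1.61, adjusted p = 1.0) and 1.19 without GFPneg replicate 1 (SE 0.93, adjusted p = 0.845). It stayed positive in all 20 fits made, from 0.89 to 4.73, and passed in 0 of them (5 had an unadjusted p below 0.05), with adjusted p from 0.296 to 1.0.

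Pgr (chromosome 9, 8899833 to 8968611) was at 38.9, 12.4 and 5.50 CPM in GFPpos replicates 1, 2 and 3, from 429, 160 and 106 counts. In GFPneg cells it was at 0, 17.8 and 15.8 CPM, from 0, 347 and 173 counts. The groups overlapped, the highest value was GFPpos replicate 1, and in the deep pairs, replicates 2 and 3, GFPpos was the lower fraction. The ratios were 0.699 (0.576 to 0.845) in replicate 2 and 0.349 (0.271 to 0.447) in replicate 3. Its log2 fold change was 0.57 (SE 0.95, adjusted p = 1.0, edgeR). It was 0.19 (SE 0.70, adjusted p = 0.988) without GFPneg replicate 1. It turned to -0.44 without GFPpos replicate 1 and to -0.89 without both libraries of replicate 1, and neither value passed the test.

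Prlr (chromosome 15, 10177238 to 10349180) was at 9.69, 9.10 and 24.1 CPM in GFPpos cells, from 107, 117 and 465 counts. In GFPneg cells it was at 0, 11.6 and 3.10 CPM, from 0, 226 and 34 counts. GFPpos replicate 3 stood above all other libraries, and GFPneg replicate 2 lay above the other GFPpos libraries, so that the groups overlapped. The replicate 3 ratio was 7.79 (5.50 to 11.4), and that of replicate 2 was 0.785 (0.622 to 0.985). The log2 fold change was 1.28 (SE 0.99, adjusted p = 1.0, edgeR), positive in all 20 fits (0.37 to 2.91) and called in 0. It was 0.97 (SE 0.75, adjusted p = 0.845) without GFPneg replicate 1. The receptor genes of replicate 3 thus differed in direction, with Esr1 and Prlr at higher and Pgr at lower CPM in GFPpos than in GFPneg cells.

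**Figure D3:**
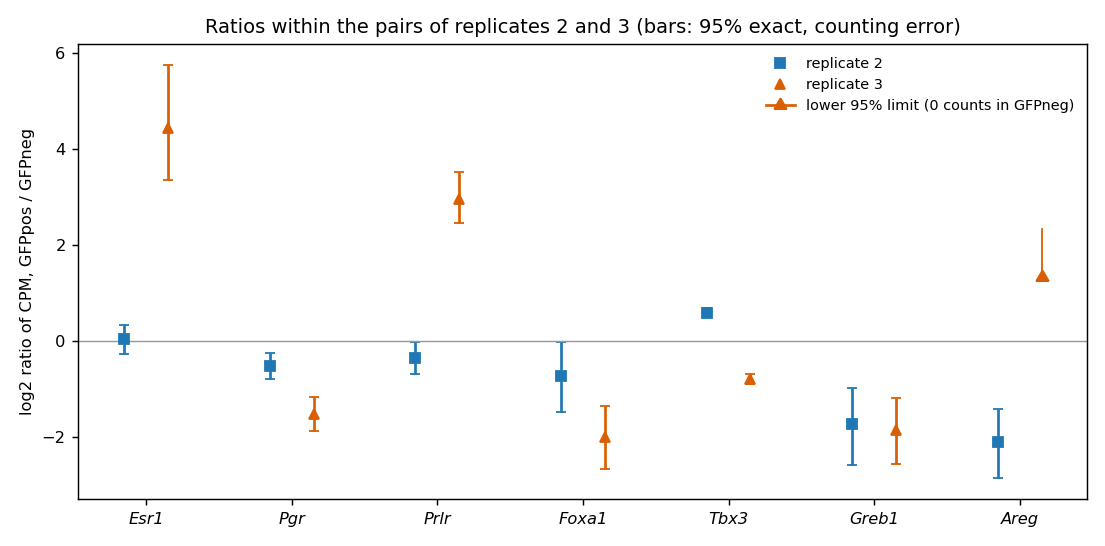
Points give the log2 ratio of CPM, GFPpos over GFPneg (vertical axis), of 7 members (horizontal axis) in the pairs of replicate 2 (squares) and replicate 3 (triangles), with 95% exact intervals for counting error. For Areg in replicate 3, with 0 GFPneg counts, the triangle is the lower limit and the line above it marks that no upper limit exists. Pgr, Foxa1 and Greb1 lie below 0 in both pairs, and the pairs of Prlr, Tbx3 and Areg lie on opposite sides of 0.

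The transcription factor and coactivator genes differed widely in level. Tbx3 (chromosome 5, 119670669 to 119684724) stood at 115, 126 and 70.1 CPM in GFPpos cells, from 1269, 1616 and 1351 counts. In GFPneg cells it stood at 52.5, 83.6 and 122 CPM, from 16, 1628 and 1334 counts. The groups overlapped, and the deep pairs went in opposite directions, with ratios of 1.50 (1.40 to 1.61) in replicate 2 and 0.577 (0.535 to 0.623) in replicate 3. In replicate 1 the ratio was 2.19 (1.34 to 3.85). The log2 fold change of 0.24 (SE 0.47, adjusted p = 1.0, edgeR) became 0.04 (SE 0.32) without GFPneg replicate 1, the smallest SE of any member. Exons of Tbx3 share 115 bases with the antisense gene Tbx3os1, which held 9, 73 and 175 counts in GFPpos and 0, 40 and 7 in GFPneg libraries. No source used here states the strand setting, so reads of the shared bases cannot be told apart. Tbx3 is not the only member with such an overlap. Exons of Greb1 share 736 bases with the antisense gene Gm48140, which is not among the symbols counted. Exons of Prlr share 203 bases with Gm21973 on the same strand, which had 0 counts in each library.

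Foxa1 (chromosome 12, 57540628 to 57546916) was low, at 3.17, 1.87 and 1.56 CPM in GFPpos cells (35, 24 and 30 counts) and 0, 3.08 and 6.20 CPM in GFPneg cells (0, 60 and 68 counts). Its ratios were 0.606 (0.361 to 0.988) in replicate 2 and 0.251 (0.158 to 0.392) in replicate 3. The groups overlapped through GFPpos replicate 1 and the 0 of GFPneg replicate 1. The fitted log2 value was -0.72 (SE 1.33, adjusted p = 1.0, edgeR), and it was -1.05 (SE 1.22, adjusted p = 0.927) without GFPneg replicate 1 and turned to 0.05 without GFPneg replicate 3. Cited1 (chromosome X, 102247381 to 102252181) did not pass the filter, with 0, 14 and 0 counts in GFPpos and 0, 10 and 42 counts in GFPneg libraries. Its most counts were in GFPneg replicate 3 (3.83 CPM). GFPpos replicate 3 had 0 counts, and the exact 95% interval of the GFPneg to GFPpos ratio of that pair begins at 19.1. The ratio in replicate 2 was 2.12 (0.877 to 5.34). Without GFPneg replicate 1, Cited1 was tested, with a log2 fold change of -2.52 (SE 2.42, adjusted p = 0.891, edgeR).

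Esr1 gave most of the counts of the pair Esr1 and Foxa1 in 4 libraries and few in the fifth that held them. It made up 83.6%, 86.4% and 89.8% of the counts of both genes in GFPpos replicates 1, 2 and 3, and 78.9% (95% exact interval 73.7% to 83.5%) in GFPneg replicate 2. In GFPneg replicate 3 it made up 9.33% (3.84% to 18.3%), and the low Esr1 count there came with the highest Foxa1 level among the 6 libraries. Such shares lie within a library and do not depend on its scaling. They do depend on gene length, as Esr1 has 13661 exon bases and Foxa1 3327. Per kilobase of exon, Esr1 stood at 1.19, 0.866 and 1.00 CPM in GFPpos replicates 1, 2 and 3. Foxa1 stood there at 0.953, 0.561 and 0.468 CPM per kilobase. In GFPneg replicate 2 Foxa1 was the higher gene on that scale (0.926 against 0.845), as it was in GFPneg replicate 3 (1.86 against 0.0467).

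The estrogen-induced gene Greb1 (chromosome 12, 16670615 to 16800886) had 0, 1.32 and 1.45 CPM in GFPpos cells (0, 17 and 28 counts) and 0, 4.41 and 5.28 CPM in GFPneg cells (0, 86 and 58 counts). Leaving aside GFPneg replicate 1, all GFPpos libraries lay below both GFPneg libraries, an order that 13.9% of 15274 genes showed in that direction. The pair ratios were 0.300 (0.167 to 0.508) in replicate 2 and 0.275 (0.169 to 0.439) in replicate 3. The log2 fold change was -1.99 (SE 1.60, adjusted p = 1.0, edgeR), negative in all 20 fits (-3.04 to -1.41) and called in 0. Without GFPneg replicate 1 it was -2.35 (SE 1.65, adjusted p = 0.807). Greb1 and Esr1 differed in opposite directions in replicate 3: Greb1 had 58 counts where Esr1 had 7 in GFPneg, and 28 where Esr1 had 264 in GFPpos.

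Of the ligands, Areg (chromosome 5, 91139599 to 91148432) was at 15.9, 1.56 and 0.934 CPM in GFPpos cells (175, 20 and 18 counts) and at 0, 6.67 and 0 CPM in GFPneg cells (0, 130 and 0 counts). Most of its GFPpos counts came from replicate 1, the library in which Pgr was also highest. The 2 deep pairs were opposed, with a ratio of 0.233 (0.138 to 0.375) in replicate 2 and 18 against 0 counts in replicate 3, for which the exact 95% interval of the ratio begins at 2.50. The log2 fold change of 1.13 (SE 1.60, adjusted p = 1.0, edgeR) turned to -1.08 without GFPpos replicate 1, and was 0.87 (SE 1.65, adjusted p = 0.963) without GFPneg replicate 1. Tnfsf11 (chromosome 14, 78277445 to 78308043) had 1 count in the 6 libraries, in GFPneg replicate 2, and was not tested. The floor of 3 counts allows up to 0.272, 0.233 and 0.156 CPM of it in GFPpos replicates 1, 2 and 3.

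**Figure D4:**
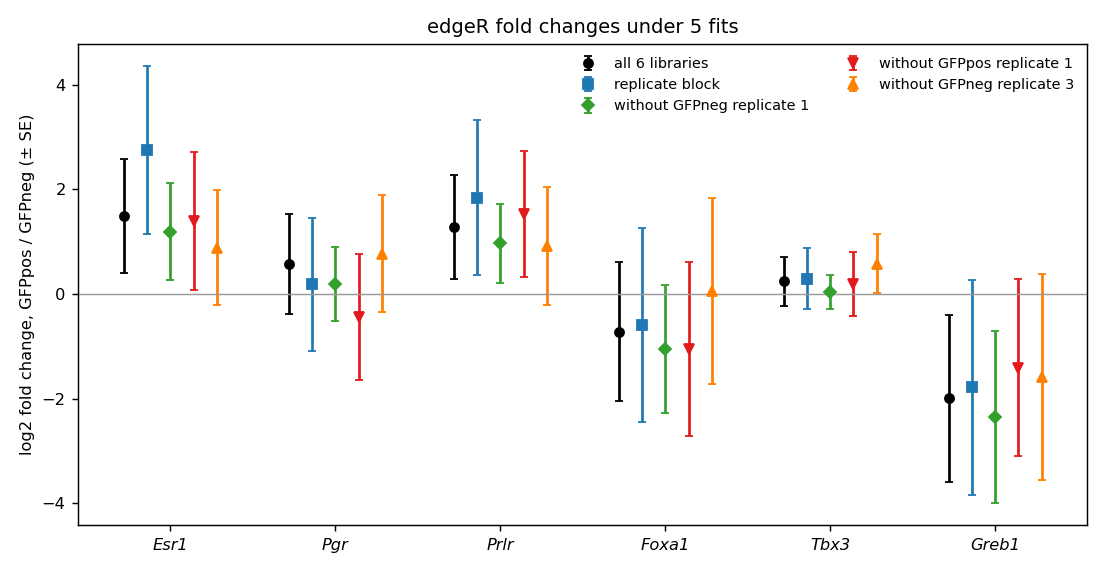
Points give edgeR's log2 fold change, GFPpos over GFPneg, with its SE (vertical axis) for 6 members under 5 fits: all libraries, the replicate block, and without GFPneg replicate 1, GFPpos replicate 1 or GFPneg replicate 3. Values of Esr1, Prlr and Tbx3 are above 0 and those of Greb1 below 0 in the 5 fits, while Pgr and Foxa1 change side when a library is left out. Areg is not drawn. Its values in these 5 fits, in the same order, were 1.13, 2.12, 0.87, -1.08 and 0.45, so that it also changes side.

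Per kilobase of exon, Tbx3 had the highest level of the 9 members in each of the 6 libraries. In GFPpos cells it averaged 15.6 ± 4.45 CPM per kilobase (SD, n = 3). Areg followed at 5.03 ± 6.95, Pgr at 2.22 ± 2.06, Esr1 at 1.02 ± 0.161, Prlr at 0.933 ± 0.555 and Foxa1 at 0.661 ± 0.257 CPM per kilobase. Cited1 (0.207 ± 0.359), Greb1 (0.0966 ± 0.0839) and Tnfsf11 (0) were lowest on that scale. From Areg to Foxa1 the ranges of neighbours in this order overlapped over the 3 GFPpos libraries, and in GFPpos replicate 1 Areg (13.1 CPM per kilobase) exceeded Tbx3 of GFPpos replicate 3 (10.6). Tbx3 also held 57.8% to 77.7% of all member counts in the 5 deep libraries. Without Tbx3, the summed member level was 83.8, 39.2 and 47.3 CPM in GFPpos and 0, 55.7 and 34.8 CPM in GFPneg replicates 1, 2 and 3.

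The partners of hormone signalling showed no call in the test over all genes. Of 18 listed receptors, kinases and coregulators, 17 were tested, 8 with positive and 9 with negative log2 fold changes (median -0.08), and 0 were called in either direction. Nrip1, a corepressor of the estrogen receptor, was among the genes with the smallest p of the list, with a mean of 192 ± 52.9 CPM in GFPpos against 353 ± 217 in GFPneg (SD, n = 3; adjusted p = 1.0, edgeR). The GFPneg levels of Nrip1 were 603, 235 and 220 CPM in replicates 1, 2 and 3, so its high mean rests on the shallow library. Without GFPneg replicate 1 the GFPneg mean of Nrip1 was 227 CPM. Its log2 fold change was then -0.22 (SE 0.29, adjusted p = 0.937, edgeR). Esr2, which encodes estrogen receptor beta, had 0 counts in all 6 libraries.

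The receptors that would receive the members' ligands were present in both fractions. Of 13 paracrine genes 12 were tested, 6 positive and 6 negative (median -0.06), with 0 called. Tnfrsf11a, which encodes the RANKL receptor RANK, had means of 41.5 ± 11.7 CPM (GFPpos) and 67.6 ± 32.6 CPM (GFPneg). Egfr, the receptor gene for amphiregulin, had 135 ± 26.2 and 146 ± 46.7 CPM. Erbb3 and the ligand gene Rspo1 had the smallest p of the list (adjusted p = 1.0 for each, edgeR), with 43.9 ± 21.5 against 17.8 ± 15.6 CPM and 7.48 ± 1.91 against 1.78 ± 1.87 CPM. The shallow GFPneg replicate 1 enters these GFPneg means, with Erbb3 and Rspo1 at 0 and Tnfrsf11a at 105 CPM there. Without it the GFPneg means were 48.9 CPM for Tnfrsf11a, 172.5 for Egfr, 26.8 for Erbb3 and 2.66 for Rspo1. Erbb3 was higher in GFPpos in replicate 2 (48.2 against 29.2 CPM) and lower in replicate 3 (20.6 against 24.3 CPM). Tnfrsf11a and Egfr were named after their values were seen, for their roles.

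Of 14 genes known to respond to estrogen or progesterone, 11 were tested, 7 positive and 4 negative (median 0.16), with 1 called higher and 0 lower. The called gene was Ccnd1, which encodes cyclin D1 and is also known as a Notch target, with a log2 fold change of 3.09 (adjusted p = 0.0181, edgeR). Of 12 other genes of luminal hormone-sensing cells, 11 were tested, 5 positive and 6 negative (median -0.05), with 0 called. Krt19, a keratin of luminal cells, was among those with the smallest p there, at 94.0, 122 and 58.2 CPM in GFPpos and 0, 39.3 and 15.1 CPM in GFPneg cells (log2 2.14, SE 0.73, adjusted p = 0.667, edgeR). Beside these medians, that of all tested genes was 0.15. The medians without GFPneg replicate 1 were -0.09 for the signalling partners, -0.19 for the paracrine genes, 0.07 for the response genes and 0.21 for the other luminal genes (0.04 over all genes). In that fit 1 response gene was called higher and 2 lower, and 0 genes of the other 3 lists were called. Some genes, such as Wnt4 and Xbp1, stand on more than 1 of the lists.

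Profiles close to those of 4 members were common among the 12137 named genes compared by Pearson's r of log2(CPM + 1) over the 6 libraries. Among the closest to Esr1 were Ube2g2 (0.998), Sept7 (0.997) and Limd2 (0.996), to Pgr Msantd4 (0.996) and Rhpn1 (0.996), and to Prlr Eci1 (0.999), Sec24d (0.999) and Svbp (0.997). Closest to Tbx3 were Ap1s3 (0.996), Fhdc1 (0.990) and Garem1 (0.989). An r above 0.9 was reached by 857 genes for Esr1, 1427 for Pgr, 1215 for Prlr and 178 for Tbx3. The profiles share the low values of GFPneg replicate 1, so these likenesses describe 6 libraries only.

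The sorted cells carried markers of the labelled basal type. All 9 basal markers (Krt5, Krt14, Krt17, Trp63, Acta2, Myh11, Mylk, Cnn1 and Oxtr) had counts in every library, with a summed level of 6824 to 8018 CPM in GFPpos and 8495 to 13775 CPM in GFPneg libraries. The list includes Acta2, the smooth muscle actin gene, whose promoter is also active in vascular smooth muscle, so its sum is not particular to basal cells. The members summed to 117 to 199 CPM in GFPpos and 52.5 to 156 CPM in GFPneg libraries. The 10 markers of estrogen receptor negative luminal progenitors summed to 277 to 632 and 95.1 to 616 CPM. Of these, 8 or 9 were above 0 in GFPpos libraries and 4 to 10 in GFPneg libraries. Lcn2 and Csn3 weighed heavily in the sums (366 and 222 CPM in GFPneg replicate 2), which therefore do not give the direction of each marker. Cldn3 was at 12.8, 18.1 and 11.2 CPM in GFPpos and 0, 4.11 and 2.46 CPM in GFPneg libraries. Csn3 was at 12.8, 52.1 and 4.31 CPM in GFPpos and 0, 222 and 25.1 CPM in GFPneg libraries. The lowest GFPneg sums of the basal, member and luminal progenitor lists came from the shallow GFPneg replicate 1. In GFPneg replicates 2 and 3 the sums were 13775 and 11960.5 (basal), 139 and 156 (members) and 616 and 231 CPM (luminal progenitor).

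Markers of other cell types were also present and differed between libraries. The 7 endothelial markers summed to 746 to 2134 CPM in GFPpos and 504 to 1689 CPM in GFPneg libraries, and the 6 pericyte markers to 160 to 612 and 42.6 to 138 CPM. Both lists had their highest sums in GFPpos replicate 3, the library with the highest Prlr. Notch3, itself a Notch receptor gene, is on the pericyte list. It stood at 155, 101 and 279 CPM in GFPpos and 42.6, 21.7 and 61.5 CPM in GFPneg replicates 1, 2 and 3. Rgs5 stood at 38.8, 23.7 and 164 CPM in GFPpos and 0, 27.2 and 29.5 CPM in GFPneg libraries. The order of the pericyte sums therefore does not hold for each marker. The 7 fibroblast markers summed to 118 to 147 CPM in GFPpos and 213 to 475 CPM in GFPneg libraries, with Lum at 0 in all 6. In the pairs of replicates 2 and 3, Col1a1, Col1a2, Col3a1 and Dcn were lower in GFPpos. Pdgfra differed in direction between these pairs. Fbln1 was higher in GFPpos in both, at 107 against 66.6 CPM and 35.8 against 21.6 CPM. The fibroblast sums therefore do not give the direction of each marker. The 6 Schwann cell markers summed to 119 to 205 and 193 to 889 CPM, and S100b had counts (67) only in GFPneg replicate 3, the library with the lowest Esr1 outside GFPneg replicate 1. The 6 adipocyte markers summed to 42.2 to 161 and 86.7 to 150 CPM. The 7 immune markers summed to 0.544 to 15.7 and 0.359 to 23.0 CPM, with Adgre1 and Csf1r at 0 in all libraries. The highest GFPneg sums of the endothelial, fibroblast, Schwann cell and immune lists came from the shallow GFPneg replicate 1. They rest on 515, 145, 271 and 7 counts. The lowest GFPneg pericyte sum also came from that library (13 counts). In GFPneg replicates 2 and 3 the sums were 826 and 504 (endothelial), 213 and 234 (fibroblast) and 193 and 416 CPM (Schwann cell). The immune sums there were 0.359 and 3.10 CPM, and the pericyte sums 82.3 and 138 CPM. The part of these cell types in the members' values was not tested.

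**Figure D5:**
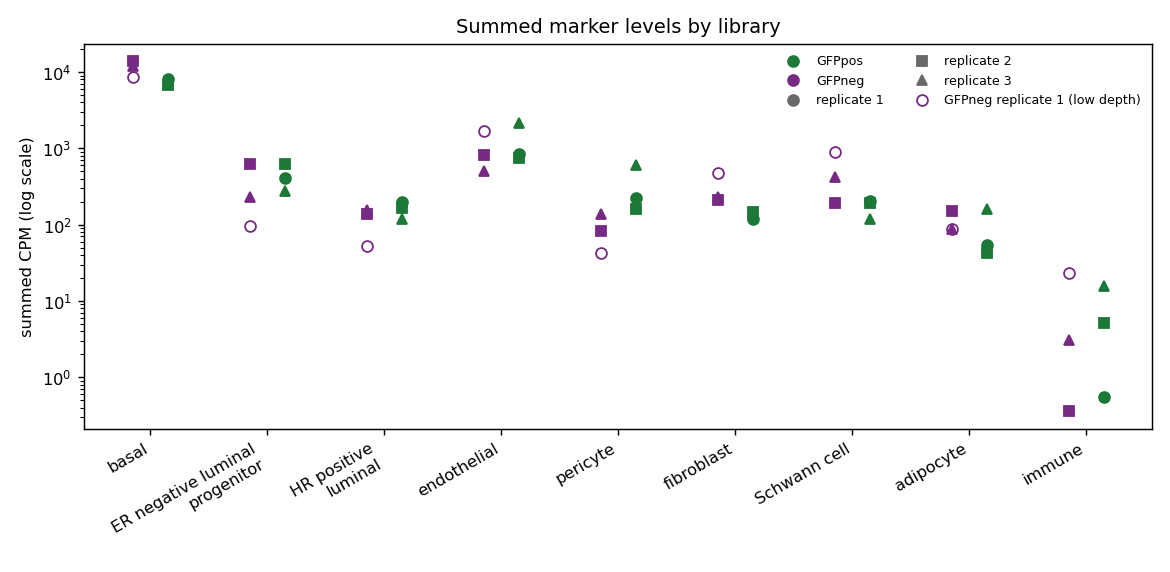
Points give the summed CPM (log axis) of 9 marker lists in each library, green for GFPpos and purple for GFPneg, with shapes for the replicate number and an open circle for GFPneg replicate 1. The basal list has the highest sums in all 6 libraries (6824 to 13775 CPM), the hormone receptor (HR) positive luminal genes lie between 52.5 and 199 CPM, and the endothelial and pericyte lists are highest in GFPpos replicate 3. ER stands for estrogen receptor.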

How the data were processed

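For each of 6 libraries the authors deposited raw counts of 51826 gene symbols, with 5 summary rows. The submitters' processing notes name FastQC, cutadapt, TopHat2, HTSeq and mm10. No version, strand setting or annotation release is given in the sources used here. Summary rows entered no test (reads in no feature were 28.8% to 66.4% of the rows' sum). Positions and exon lengths came from GENCODE M21 on the same assembly.

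The 3 GFPpos and 3 GFPneg libraries were compared with the quasi-likelihood test of edgeR 4.0.16 (R 4.3.3), with group as the only term, TMM scaling, genes kept by filterByExpr, and Benjamini-Hochberg adjustment over 13873 genes at a threshold of 0.05. CPM are per 1000000 of TMM-scaled size, with a factor of 0.501 in GFPneg replicate 1 and 1.05 to 1.22 elsewhere. SE is the unshrunk log2 value over the root of F. Ratios within a pair have exact 95% intervals that cover counting error only and compare libraries, not conditions. Floors use 3 counts.

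Per the design text, GFPpos and GFPneg of a number share a pool of mice, which pairs the samples. Deviations from the group means correlated at -0.016, 0.095 and 0.011 in replicates 1, 2 and 3. Pools are the replicates, so spread is spread between pools.

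The named genes were the 9 members, genes of 4 pathway lists that were called (or the 2 with the smallest p), and the 3 closest profiles of 4 members. A few genes taken by this rule are not reported here. Members and lists were chosen with earlier results of these data known. The script was tested on simulated data. The alternatives were the replicate block, DESeq2 1.42.0 (with and without it), limma-voom (limma 3.58.1), other scaling and filters, removal of the 5 abundant features (mt-Rnr1, mt-Rnr2, Gm42418, Gm26917 and Gm23935) and leaving out libraries or pairs.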

Additional observations from a re-analysis of the deposited data

How the results depend on the processing

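The 7 members tested with all libraries were fitted 20 times (the test described above and 19 alternatives), Cited1 in 8 of these fits and Tnfsf11 in 1. Where a member was tested it was not called, with 0 higher and 0 lower in each fit. DESeq2 gave no adjusted p for Areg, nor for Greb1 with the block. An unadjusted p below 0.05 was reached by Esr1 in 5 fits, Areg in 2, Greb1 in 1 and the other members in 0. The share of all genes called ranged from 0.0136% to 2.52% higher and from 0.00664% to 1.41% lower. Over all genes the counts moved with the setting, from 8 higher and 1 lower. They were 54 and 24 with limma-voom, 43 and 18 with the replicate block, 50 and 48 with DESeq2, 91 and 61 with the block in DESeq2, 65 and 236 with no low count filter, and 386 and 216 with the replicate block without replicate 1. With library size only, 5 were higher. Leaving out a library or a pair gave 2 to 63 higher and 1 to 68 lower. The cause was not tested.

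Of 133 values of the 7 tested members under the alternatives, 123 kept their direction and 10 reversed. Pgr turned to -0.32 with limma-voom, -0.44 without GFPpos replicate 1, -0.89 without replicate 1 and -0.99 with the replicate block without replicate 1. Foxa1 turned to 0.054 without GFPneg replicate 3 and 0.22 without replicate 3, Areg to -1.08 without GFPpos replicate 1 and -1.42 without replicate 1, and Tbx3 to -0.044 without replicate 1 and -0.081 with the replicate block without replicate 1. Leaving out libraries or pairs gave -0.89 to 1.27 for Pgr, -1.41 to 0.22 for Foxa1, -1.42 to 9.45 for Areg (its GFPneg libraries are then at 0, so that the upper value is no bound) and -0.044 to 0.80 for Tbx3. The members' median ranged from -1.15 (without replicate 1) to 1.25 (without replicate 2). These medians cover unlike sets, as 8 members were tested without replicate 1, Cited1 (-1.96) among them, and 7 without replicate 2. Scaling by library size only put the median of all genes at 0.31, against 0.15, and reversed no member. The replicate block changed no call of a member. Depth limits GFPneg replicate 1 most, where 8 members had no count.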

Other observations

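Among the genes known to respond to estrogen or progesterone, Igfbp5 and Cxcl12 were the 2 called lower without GFPneg replicate 1. They were named after their values were seen. Igfbp5, which encodes an insulin-like growth factor binding protein, stood at 1370, 1324 and 1088 CPM in GFPpos and 1361, 4013 and 4163 CPM in GFPneg replicates 1, 2 and 3. Without GFPneg replicate 1 its log2 fold change was -1.68 (adjusted p = 0.0131, edgeR's quasi-likelihood test), against -1.34 (adjusted p = 0.662) with all 6 libraries. Cxcl12, which encodes a chemokine, stood at 77.5, 88.5 and 41.4 CPM in GFPpos and 45.9, 229 and 216 CPM in GFPneg libraries, with -1.67 (adjusted p = 0.0475) and -1.27 (adjusted p = 0.850). In both genes the replicate 1 pair did not follow the other pairs.

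In the block fit of the 2 deep pairs, in which 2.52% of all genes were called higher, Jak2, the kinase bound to the prolactin receptor, and Fkbp5, a chaperone gene induced by steroid receptors, were called higher. Their adjusted p was 0.0122 and 0.0482 in edgeR's quasi-likelihood test, and 1.0 for each with all 6 libraries. Jak2 and Fkbp5 were named after their values were seen. The levels of Jak2 were 143, 118 and 186 CPM in GFPpos and 184, 57.6 and 73.8 CPM in GFPneg libraries. In the replicate 1 pair Jak2 was thus higher in GFPneg. The levels of Fkbp5 were 58.2, 60.2 and 135 CPM in GFPpos and 141, 42.1 and 42.1 CPM in GFPneg libraries, so that its highest value was in GFPneg replicate 1. Krt19 was also called higher in that fit (adjusted p = 0.000136).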
